A study of Mus musculus with 12 samples.

Results

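The 46 genes described here encode nuclear receptors, and they were taken as the rows of 46 listed symbols in the count table of each of 12 mouse testis RNA libraries, which hold 35976 gene symbols. All 46 symbols were present in every library. They comprise 5 steroid receptors, 2 thyroid hormone receptors, 6 retinoid receptors, 9 receptors for vitamin D and lipids, and 24 orphan receptors. RNA came from testes of E15.5 embryos of the outbred Swiss (RjOrl) strain, and each library was made from testes of 3 embryos pooled. Mothers of the F1 embryos were given thiacloprid (*thia*), a neonicotinoid insecticide, by gavage at 6 mg/kg/day from E6.5 to E15.5, or the olive oil vehicle alone for F1 control. F3 *thia* embryos descended from these F1 males by crosses of males with untreated females, so that they were not exposed themselves, and F3 control embryos descended from the vehicle group. Each of the 4 groups, F1 control, F1 *thia*, F3 control and F3 *thia*, had 3 libraries.

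Nuclear receptors are transcription factors with a zinc finger DNA-binding domain and a pocket for a small lipophilic ligand, so that a hormone or metabolite can act directly on gene transcription. Steroid receptors are held by chaperones until ligand binds. Thyroid hormone, retinoic acid, vitamin D and lipid-sensing receptors sit on DNA as partners of a retinoid X receptor. Orphan receptors were named before any ligand was known, and some act as constitutive activators or repressors. In the fetal testis, NR5A1 (SF-1) is needed for gonad formation and for steroid synthesis, and NR2F2 (COUP-TFII) marks interstitial progenitors. Retinoic acid is linked to entry of germ cells into meiosis, whereas germ cells of the embryonic testis stop dividing and resume spermatogenesis only after birth.

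Between 25081647 and 68996146 counts per library were assigned to genes, so that 1 CPM, the unit of counts scaled to library size, stood for 26.98 to 66.8 counts. CPM values were scaled by TMM over the 12 libraries, and levels of different genes are compared only as RPKM, that is, CPM per kilobase of exon. Markers of Sertoli, fetal Leydig, germ, interstitial and endothelial cells were detected in all libraries. Summed markers of Sertoli cells ranged from 667 to 1836 CPM, and those of germ cells from 351 to 1154 CPM. A pair of F3 libraries stood apart, F3 control replicate 3 and F3 *thia* replicate 2. In these, 6 secreted liver transcripts summed to 1680 and 5013 CPM, against 355 to 958 CPM in the other F3 libraries and 70.4 to 431 CPM in F1. F1 *thia* replicate 2 had 418 CPM of skeletal muscle markers, against 9.82 to 43.2 CPM in the other F1 libraries. Red cell markers summed to 19506 to 39424 CPM in F3 and 2055 to 8277 CPM in F1. Macrophage markers also lay higher in F3, at 86.2 to 141 CPM, than in F1, at 41.5 to 63.7 CPM. Markers of mesonephros, at 39.4 to 57.8 CPM, ovary, at 13.0 to 27.04 CPM, gut epithelium, at 5.003 to 28.2 CPM, and kidney tubule, at 14.4 to 23.1 CPM, were low in every library. No marker on these lists was at 0 in all libraries.

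Receptor levels spanned more than 3 orders of magnitude. *Nr5a1* and *Thra* stood at the top in all 4 groups. *Nr5a1*, the SF-1 gene, had 56.4 ± 4.73 RPKM in F1 control and 60.8 ± 13.2 RPKM in F1 *thia* (SD, n = 3). It had 35.9 ± 5.09 RPKM in F3 control and 51.4 ± 11.3 RPKM in F3 *thia*. *Thra*, the gene of the main thyroid hormone receptor, had 43.5 ± 2.82 to 52.4 ± 4.12 RPKM over the 4 groups. Within F3 *thia*, the levels of *Nr5a1* and *Thra* did not differ from each other beyond their spread. *Nr2f6*, an orphan repressor of the COUP-TF family, followed at 32.9 to 34.9 RPKM, and *Nr2f2* at 21.2 to 30.8 RPKM. *Rxra*, the common partner of many receptors, had 19.7 to 25.6 RPKM. With *Rxrb* at 13.7 to 14.8 RPKM and *Nr1h2* at 12.8 to 13.98 RPKM, 7 genes were at or above 10 RPKM in all 4 groups. At the other end, 18 genes were under 1 RPKM in all 4 groups and 6 were under 0.1 RPKM. *Nr1i3*, the constitutive androstane receptor gene, had 4 to 12 counts per library, *Nr2e1* had 0 to 8 and *Hnf4g* had 1 to 10, and these genes did not pass the low-count filter in any comparison. *Nr2e3*, known from the retina, had 3 to 21 counts and did not pass it in F3. The remaining 42 genes passed in F3 and 43 passed in F1.

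**Figure D1:**
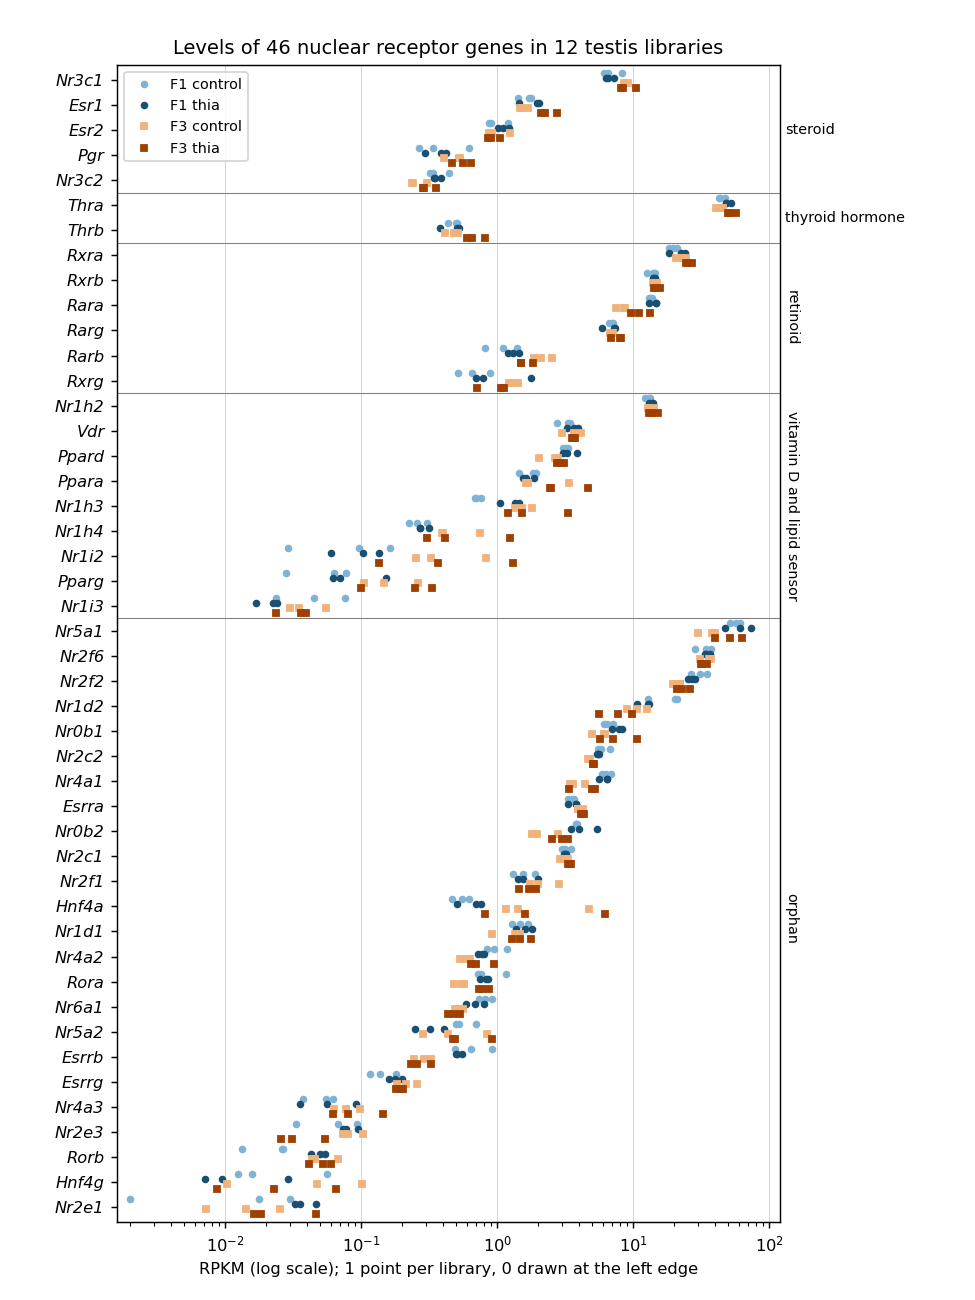
RPKM (x axis, log scale) of the 46 receptor genes (y axis, grouped by class) in each library, coloured by group; a value of 0 is drawn at the left edge. *Nr5a1* and *Thra* stand at the right in every group, and points of *Hnf4a*, *Nr1i2* and *Nr1h4* in F3 are split, with 1 library of each F3 group far to the right.

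The first question was whether *thia* altered receptor levels in directly exposed F1 testes and in F3 testes. In F1, 0 of 43 receptor genes passed the FDR of 0.15 by the quasi-likelihood test of edgeR, which called 0.0105% of the 19137 genes tested. At an unadjusted p under 0.05 there were 5 receptor genes, against 8.76% of all genes. *Nr1h3*, *Rorb* and *Nr0b1* were higher in F1 *thia*, where 4.63% of all genes were, and *Nr1d2* and *Nr5a2* were lower, where 4.13% were. In F3, 0 of 42 receptor genes passed the FDR of 0.1, which called 0% of the 18539 genes tested. There were 7 at an unadjusted p under 0.05, against 21.1% of all genes. *Esr1*, *Rora*, *Rara*, *Thra*, *Nr5a1* and *Thrb* were higher in F3 *thia*, and *Rarb* was lower. The 6 higher genes made 14.3% of those tested, against 11% of all genes, and the single lower gene made 2.38%, against 10%. The median log2 fold change of the receptor genes was 0.09 in F1 and 0.20 in F3, where that of all genes was 0.0044, and 32 of the 42 genes in F3 lay above 0. The Wald test of DESeq2 at the same thresholds called 6 receptor genes in F3, the 6 higher ones named above, against 17.1% of all genes with an adjusted p. In F1 it called *Nr1h3* and *Nr1d2*, against 0.985% of all genes. The share of receptor genes called or at a low p in F3 was thus close to that of all genes. The count of 7 in F3 was 3 without F3 *thia* replicate 3, where 13.8% of all genes had such a p, 4 without F3 control replicate 1, where 11.9% had, and 11 without the pair of libraries rich in liver transcripts, where 21% had.

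**Figure D2:**
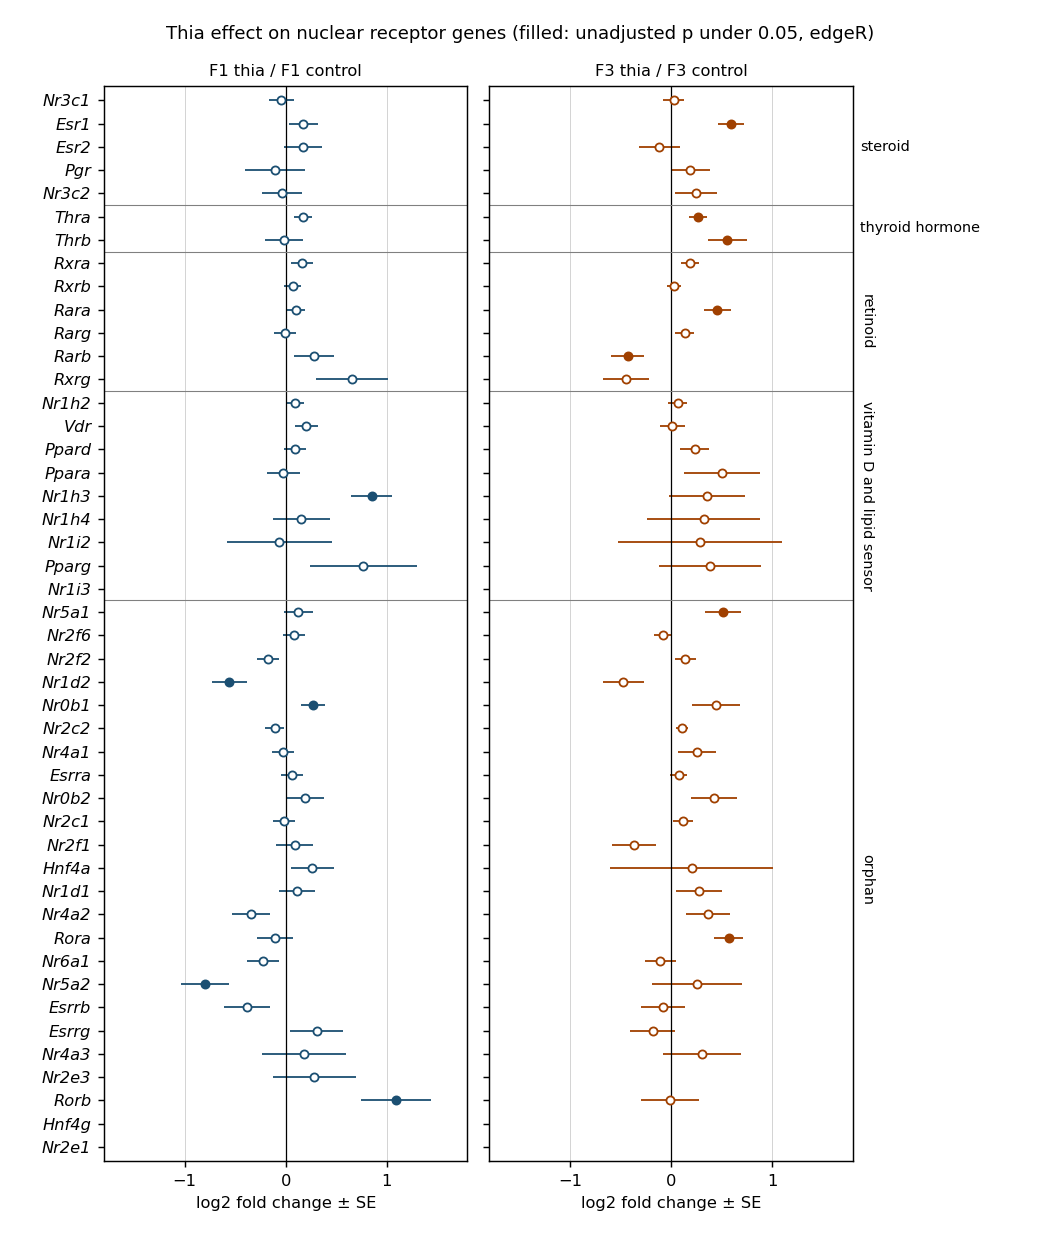
log2 fold change ± SE (x axis) of *thia* over control in F1 (left) and F3 (right) for each receptor gene that passed the filter (y axis, grouped by class); filled points have an unadjusted p under 0.05. In F1 the filled points are 3 on the right and 2 on the left, and in F3 they are 6 on the right and *Rarb* on the left.

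Marker sums of several cell types moved with *thia*. In F1, macrophage markers summed to 51.2 to 63.7 CPM in *thia* and 41.5 to 48.8 CPM in control, with 4 of 4 higher, and adrenal markers to 25.05 to 36.8 CPM against 42.0 to 57.5 CPM, with 3 of 3 lower. Ovary markers summed to 15.6 to 16.1 CPM in F1 *thia* and 13.0 to 14.6 CPM in F1 control, with 2 of 3 higher. Germ cell markers overlapped, at 749.6 to 918 CPM against 862 to 1154 CPM, but 5 of 5 were lower, 3 of them at an unadjusted p under 0.05. Of the mesonephros markers 3 of 4 were higher, and of the skeletal muscle markers 5 of 5, in each case 2 at that p. In F3, markers of fetal Leydig cells, which make androgen, summed to 3798 to 6877 CPM in F3 *thia* and 2165 to 3594 CPM in F3 control, and 5 of 5 were higher, 2 of them at an unadjusted p under 0.05. Endothelial markers summed to 215 to 257 CPM against 144 to 164 CPM, with 5 of 5 higher. Interstitial markers summed to 1084 to 1204 CPM against 950 to 1093 CPM, with 4 of 5 higher. Sums of adrenal markers did not overlap, at 52.1, 51.4 and 111 CPM in F3 *thia* and 31.3, 48.4 and 46.8 CPM in F3 control, with 3 of 3 higher. Germ cell markers summed to 351 to 629 CPM against 529 to 798 CPM, with 0 of 5 higher. Sertoli markers overlapped, at 1457 to 1836 CPM in F1 *thia* against 1322 to 1583 CPM in F1 control. In F3 they were 667 to 1175 CPM against 750 to 962 CPM. Of these 6 markers, 6 were higher in F1 and 4 in F3, with 0 and 2 higher at an unadjusted p under 0.05. The part of all these markers in the receptor levels was not tested. In RNA from whole testes fewer cells of a type and less RNA per cell cannot be told apart.

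Among the steroid receptors, *Esr1*, the gene of oestrogen receptor alpha, led the F3 comparison. Its levels in F3 control were 20.2, 20.7 and 23.1 CPM, and in F3 *thia* they were 28.4, 30.5 and 37.6 CPM. Every F3 *thia* library lay above every F3 control library. The log2 fold change was 0.59 ± 0.13 (SE), with an adjusted p of 0.105 by edgeR, which missed the threshold of 0.1. Over the alternatives that were tried the adjusted p ranged from 0.0021 with DESeq2 to 0.36 when single libraries were left out. It passed without F3 *thia* replicate 2, at 0.078. In F1, *Esr1* had 19.5, 23.3 and 24.3 CPM in control and 27.9, 19.8 and 26.98 CPM in *thia*, and these groups overlapped. The difference between the F3 and F1 effects was 0.44 ± 0.21, with an adjusted p of 0.36 by edgeR.

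*Nr3c1*, the glucocorticoid receptor gene, had the highest level of the steroid receptors, at 6.69 to 9.02 RPKM. It had 50.4, 47.1 and 63.3 CPM in F1 control and 55.5, 50.2 and 48.5 CPM in F1 *thia*. In F3 it had 67.2, 66.2 and 70.6 CPM in control and 64.8, 80.8 and 62.4 CPM in *thia*. The groups overlapped in both generations, and the log2 fold changes were -0.04 ± 0.12 in F1 and 0.03 ± 0.11 in F3. *Esr2*, the gene of oestrogen receptor beta, had 0.93 to 1.11 RPKM, *Pgr*, the progesterone receptor gene, 0.37 to 0.55 RPKM, and *Nr3c2*, the mineralocorticoid receptor gene, 0.26 to 0.37 RPKM. Their log2 fold changes in F3 were -0.12 ± 0.20, 0.19 ± 0.20 and 0.25 ± 0.21. Of 12 known glucocorticoid-induced genes, 2 were higher in F3 *thia* at an unadjusted p under 0.05, against 11% of all genes, 0 were lower, and 9 lay above 0. The 2 were *Per1*, with a log2 fold change of 0.28 ± 0.07, and *Fkbp5*, with 0.27 ± 0.11.

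The thyroid hormone receptor genes were both higher in F3 *thia*, without overlap. *Thra* had 186, 211 and 205 CPM in F3 control and 229, 233 and 263 CPM in F3 *thia*. In F1 it had 219.7, 201 and 196 CPM in control and 222, 222 and 242 CPM in *thia*. *Thra* was the only 1 of the 43 receptor genes whose *thia* libraries all lay on the same side of the controls in both generations, as 2.45% of all genes did. Its log2 fold change was 0.17 ± 0.09 in F1 and 0.27 ± 0.09 in F3, where the adjusted p by edgeR was 0.164. *Thrb*, the gene of thyroid hormone receptor beta, was far scarcer, at 0.47 to 0.69 RPKM. It had 3.04, 3.56 and 3.82 CPM in F3 control and 4.41, 4.86 and 6.06 CPM in F3 *thia*. This gave a log2 fold change of 0.56 ± 0.19, with an adjusted p of 0.171 by edgeR. In F1 its groups overlapped, at 3.21 to 3.74 CPM in control and 2.79 to 3.85 CPM in *thia*. *Thra* shares 263 exonic bases with *Nr1d1* on the opposite strand, and the strand setting of the counting is not given in the sources used here.

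Among 14 tested genes for hormone and vitamin D metabolism and transport, 2 were higher in F3 *thia* at an unadjusted p under 0.05, against 11% of all genes, and 0 were lower. *Dio3* was among them, and its product inactivates thyroid hormone. It had 0.94 to 1.21 CPM in F3 control and 1.499, 1.44 and 5.85 CPM in F3 *thia*, so that replicate 3 carried most of its difference.

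Among the retinoid receptors the receptors for retinoic acid went in both directions in F3. *Rara*, the gene of retinoic acid receptor alpha, had 32.8, 38.0 and 37.1 CPM in F3 control and 48.5, 42.0 and 58.0 CPM in F3 *thia*. The groups did not overlap, and the log2 fold change was 0.46 ± 0.13, with an adjusted p of 0.132 by edgeR. Over the alternatives the adjusted p ranged from 0.023 with DESeq2 to 0.40, and it was 0.070 without F3 *thia* replicate 2. *Rarb* had 11.01, 9.78 and 13.3 CPM in F3 control and 7.91, 9.58 and 7.89 CPM in F3 *thia*, with every F3 *thia* library below every F3 control library. Its fitted log2 fold change was -0.43 ± 0.16, with an adjusted p of 0.193 by edgeR. In F1 the *Rarb* groups overlapped, at 5.83, 4.31 and 7.30 CPM in control and 7.56, 6.91 and 6.35 CPM in *thia*. *Rarg* was steady, at 6.83 to 7.65 RPKM, with a log2 fold change of 0.13 ± 0.09 in F3. *Rarb* shares 1793 exonic bases with *Top2b* on the opposite strand.

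*Rarb* is a textbook target of retinoic acid through a response element just upstream of its start site. This element, of the direct repeat kind known as DR5, was searched on both strands of RefSeq promoters of GRCm38.p6, the mm10 build. The letters searched were both hexamers as they stand in the *Rarb* element, with any 5 bases between them. A match in *Rarb* was thus given by the choice of letters, and DR5 elements with other hexamers were not searched. The counts therefore do not give the share of promoters with a DR5 element. These letters were found in 2 of 32851 promoters, or 0.00609%, and in 1 of 63 promoters of 42 receptor genes, that of *Rarb*. The 250 bases upstream of this start, on the minus strand at chr14:16575477-16575726, are shown because they hold the element, in capitals, from base -53 to base -37 counted from the start.
Rarb: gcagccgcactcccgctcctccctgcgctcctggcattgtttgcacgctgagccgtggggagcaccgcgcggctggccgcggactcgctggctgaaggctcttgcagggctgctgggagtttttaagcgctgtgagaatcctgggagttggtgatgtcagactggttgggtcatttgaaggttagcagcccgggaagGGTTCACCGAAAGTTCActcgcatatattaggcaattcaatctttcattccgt

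The element is a pair of hexamers in the same orientation, 5 bases apart. A single hexamer AGGTCA, bound by most receptors of this family, was also searched on both strands. It occurred in 12 of 63 receptor promoters, or 19.0%, and in 16.3% of all promoters. The extended form CAAGGTCA, bound by SF-1, was in 0 receptor promoters and in 1.56% of all promoters. Only these exact letters were searched, so the count of 0 does not show that SF-1 sites were absent. By gene, 11 of 42 receptor genes had a promoter with the single hexamer AGGTCA. Of the 12 genes at an unadjusted p under 0.05 in F1 or F3, 5 did, and *Thra* and *Nr5a1* had no promoter among those searched. The share of all genes with such a promoter was not counted, so these counts by gene have no background to be read against. Short windows around AGGTCA in these 5 genes are shown 5′ to 3′ on the gene's strand, with the hexamer in capitals. They are places where a receptor could in principle bind the promoter of another. A match describes these letters and not a bound site. The windows are at chr11:98964893-98964921, plus strand, for *Rara*, at chr14:17660764-17660793, plus strand, for *Thrb*, at chr1:136960495-136960524, minus strand, for *Nr5a2*, at chr14:18239166-18239195, minus strand, for *Nr1d2*, and at chrX:86191637-86191666, plus strand, for *Nr0b1*.
Rara: gcagattgcagcAGGTCAgtcctttggac
Thrb: aggagagttgacAGGTCAagggaatagggc
Nr5a2: atggtttacagcAGGTCAtacatgctggaa
Nr1d2: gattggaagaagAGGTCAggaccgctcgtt
Nr0b1: tttgagctttcgAGGTCAtggccacacaca

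*Rxra* had the highest level of the retinoid receptors. It had 114.7, 107 and 100.3 CPM in F1 control and 100.7, 132 and 124 CPM in F1 *thia*. In F3 it had 112, 122 and 133 CPM in control and 132, 149 and 138 CPM in *thia*, where the ranges met, and the log2 fold change was 0.19 ± 0.09. *Rxrb* differed little, with 0.07 ± 0.09 in F1 and 0.03 ± 0.07 in F3. *Rxrg*, the scarcest partner, had 2.79, 2.99 and 3.24 CPM in F3 control and 2.59, 2.45 and 1.62 CPM in F3 *thia*, with no overlap and a log2 fold change of -0.45 ± 0.23. In F1 it had 2.03, 1.49 and 1.19 CPM in control and 1.82, 4.06 and 1.60 CPM in *thia*. Its high library, F1 *thia* replicate 2, was the one with the high skeletal muscle markers, and the part of these in the *Rxrg* level was not tested.

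Genes that make, carry and clear retinoic acid were read with the receptors. Of 14 tested, 2 were higher and 3 lower in F3 *thia* at an unadjusted p under 0.05, against 11% and 10% of all genes. *Aldh1a2*, the enzyme that makes retinoic acid in the gonad and mesonephros, had 247, 239 and 208 CPM in F3 control and 151, 185 and 164 CPM in F3 *thia*. Every *thia* library was lower, with a log2 fold change of -0.47 ± 0.10 and an adjusted p of 0.105 by edgeR. *Crabp2*, a binding protein for retinoic acid, had a log2 fold change of -0.49 ± 0.15. *Stra6*, the retinol uptake receptor gene, was higher, at 24.2, 20.8 and 34.1 CPM in F3 *thia* against 16.3, 14.96 and 17.6 CPM in F3 control. In F1, *Aldh1a2* had a log2 fold change of -0.0050 ± 0.11.

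**Figure D3:**
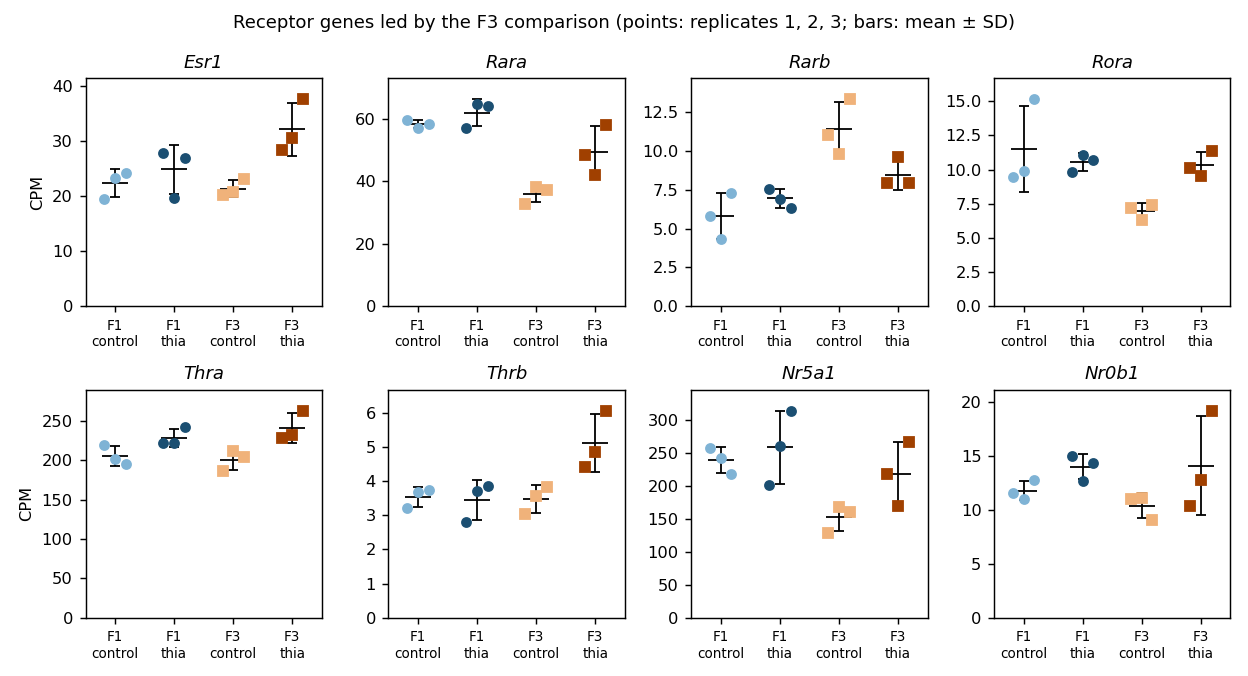
CPM (y axis) of 8 receptor genes in the 4 groups (x axis), with 1 point per library and the mean ± SD of 3 libraries as bars. In F3, *Esr1*, *Rara*, *Rora*, *Thra*, *Thrb* and *Nr5a1* have all *thia* points above all control points and *Rarb* has them below, whereas *Nr0b1* overlaps.

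The receptor gene with the smallest p in F1 was a lipid sensor. *Nr1h3*, the gene of the oxysterol receptor LXR alpha, had 1.74, 1.92 and 1.74 CPM in F1 control and 3.61, 2.63 and 3.39 CPM in F1 *thia*. The groups did not overlap, and the log2 fold change was 0.85 ± 0.20, with an adjusted p of 0.446 by edgeR. Over the alternatives the adjusted p ranged from 0.092 with DESeq2 to 0.85. Macrophages express *Nr1h3*, and the part of the macrophage markers given above in its level was not tested. In F3 it had 3.81, 3.37 and 4.57 CPM in control and 3.84, 8.28 and 3.01 CPM in *thia*, and the groups overlapped, with replicate 2, rich in liver transcripts, on top. Its close relative *Nr1h2*, the LXR beta gene, had the highest level of this class. It had 44.2, 44.3 and 40.7 CPM in F1 control, 45.7, 47.0 and 43.5 CPM in F1 *thia*, 43.0, 43.3 and 47.9 CPM in F3 control, and 43.6, 51.2 and 45.8 CPM in F3 *thia*. Its log2 fold changes were 0.09 ± 0.09 and 0.07 ± 0.09. *Vdr*, the vitamin D receptor gene, and *Ppard* had 2.50 to 3.63 RPKM, and *Pparg*, known from adipocytes, had 0.056 to 0.23 RPKM. None of these had an unadjusted p under 0.05 in F1 or F3.

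Of 21 tested target genes of LXR and PPAR receptors, 8 were higher in F3 *thia* at an unadjusted p under 0.05, 0 were lower, against 11% and 10% of all genes, and 18 lay above 0, with a median log2 fold change of 0.35. *Lpcat3*, which remodels phospholipids, had 47.6, 52.0 and 50.7 CPM in F3 control and 66.4, 70.2 and 71.0 CPM in F3 *thia*, and an adjusted p of 0.101 by edgeR. *Scd1*, the stearoyl-CoA desaturase gene, had a log2 fold change of 1.22 ± 0.23, and *Srebf1*, a regulator of fatty acid synthesis, had 0.53 ± 0.11. In F1, 2 of the 21 were higher and 2 lower, against 4.63% and 4.13% of all genes.

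Several receptors known from liver, though not all, followed the liver transcripts in F3. *Hnf4a*, a regulator of hepatocyte genes, had 6.85, 5.63 and 22.8 CPM in F3 control and 7.70, 29.8 and 3.94 CPM in F3 *thia*. The high libraries were F3 control replicate 3 and F3 *thia* replicate 2, those rich in secreted liver transcripts. *Nr1i2*, the pregnane X receptor gene, had 2.12 and 3.31 CPM in this pair and 0.34 to 0.93 CPM in the other F3 libraries. *Nr1h4*, the bile acid receptor gene, had 1.73 and 2.88 CPM against 0.70 to 0.96 CPM, and *Ppara* had 13.0 and 17.8 CPM against 6.20 to 9.48 CPM. *Nr5a2* (LRH-1) had 4.97 and 5.44 CPM against 1.67 to 2.87 CPM. *Nr0b2* and *Nr1i3*, also known from liver, did not follow this pattern. *Nr0b2* had 2.23 and 2.85 CPM in the pair and 2.05 to 3.74 CPM in the other F3 libraries. *Nr1i3*, at few counts, had 0.13 and 0.17 CPM against 0.10 to 0.24 CPM. Of the 42 receptor genes tested in F3, 10 had both libraries above the other 4, or 23.8%, against 11.1% of all genes. *Nr3c1*, *Pparg*, *Nr1h2* and *Rxrb* were among the 10 by a narrow margin. The lower library of the pair was only 1.02 to 1.05 times the highest other F3 library in these genes. Skeletal muscle markers were also highest in this pair, at 152 and 119 CPM against 32.4 to 66.9 CPM, as were macrophage markers, at 140.5 and 141 CPM against 86.2 to 102 CPM. Gut epithelium markers did not follow this pattern, at 12.3 and 8.17 CPM in the pair and 5.495 to 28.2 CPM in the other F3 libraries. The pair spans both F3 groups, and the SE of *Hnf4a*, *Nr1i2* and *Nr1h4* was 0.81, 0.81 and 0.56 on the log2 scale in F3, against 0.22, 0.52 and 0.28 in F1. Without the pair, the log2 fold change of *Ppara* was 0.58 ± 0.16, where it was 0.50 ± 0.37 with all libraries. The higher genes kept their direction without the pair, with log2 fold changes of 0.70 for *Esr1*, 0.60 for *Rara*, 0.68 for *Rora* and 0.72 for *Nr5a1*, and *Rarb* had -0.39.

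**Figure D4:**
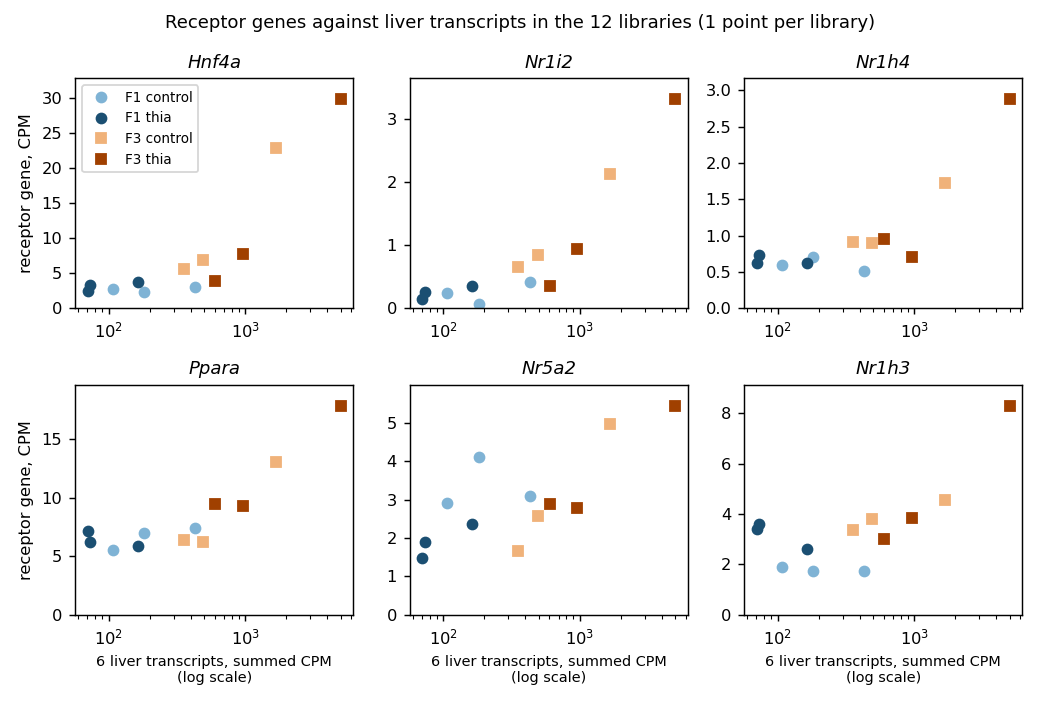
CPM of 6 receptor genes (y axis) against the summed CPM of 6 secreted liver transcripts (x axis, log scale) in each of the 12 libraries. The 2 points at the right, F3 control replicate 3 at 1680 CPM and F3 *thia* replicate 2 at 5013 CPM, have the highest level in every panel.

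Among the orphan receptors, *Nr5a1* was higher in F3 *thia*, at 218, 169.7 and 266 CPM, than in F3 control, at 128, 168 and 161 CPM. The lowest *thia* library lay just above the highest control library. The log2 fold change was 0.52 ± 0.18, with an adjusted p of 0.167 by edgeR. Over the alternatives the adjusted p ranged from 0.040 with DESeq2 to 0.46, and it was 0.073 without F3 *thia* replicate 2. In F1, *Nr5a1* had 257, 243 and 218 CPM in control and 201, 260.4 and 313 CPM in *thia*, with overlap and a log2 fold change of 0.13 ± 0.15. Within each F3 group the libraries ranked the same way by *Nr5a1* as by the summed fetal Leydig markers, which were 2165, 3594 and 3292 CPM in control and 5336, 3798 and 6877 CPM in *thia*. By the summed Sertoli markers the F3 *thia* libraries also ranked this way, at 1156, 667 and 1175 CPM. The F3 control libraries did not, at 826, 962 and 750 CPM. Leydig and Sertoli cells both express *Nr5a1*, and the part of each was not tested. *Nr0b1* (DAX1), a repressor of SF-1, had 10.98, 11.1 and 9.03 CPM in F3 control and 10.3, 12.7 and 19.2 CPM in F3 *thia*. F3 *thia* replicate 3, where *Nr0b1* and *Nr5a1* were highest, also had the highest sum of adrenal markers, 111 CPM, and the other F3 *thia* libraries, at 52.1 and 51.4 CPM, lay above F3 control as well. Adrenal cells express both genes, and the part of these cells was not tested. In F1, *Nr0b1* had 11.5, 11.04 and 12.8 CPM in control and 15.01, 12.7 and 14.3 CPM in *thia*, with a log2 fold change of 0.27 ± 0.12 and an adjusted p of 0.563 by edgeR. *Nr0b2* (SHP), a related repressor, had log2 fold changes of 0.19 ± 0.19 in F1 and 0.42 ± 0.23 in F3.

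All 15 listed SF-1 target genes lay above 0 in F3, 8 of them at an unadjusted p under 0.05, where 11% of all genes were higher, with a median log2 fold change of 0.70. Several are also among the Leydig or Sertoli markers. *Lhcgr*, the luteinizing hormone receptor gene, had 24.7, 25.2 and 21.6 CPM in F3 control and 48.8, 41.9 and 90.5 CPM in F3 *thia*, a log2 fold change of 1.35 ± 0.28. *Scarb1*, which takes up cholesterol esters, had 1.16 ± 0.26, and *Por*, the electron donor of steroidogenic P450 enzymes, had 0.65 ± 0.14. Their adjusted p was 0.105 by edgeR in each case. In F1, 6 of the 15 lay above 0 and 0 had an unadjusted p under 0.05.

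*Nr5a2*, the paralogue of *Nr5a1*, was lower in F1 *thia*. It had 3.08, 2.92 and 4.11 CPM in F1 control and 1.89, 2.38 and 1.48 CPM in F1 *thia*, with no overlap. This gave a log2 fold change of -0.80 ± 0.24, with an adjusted p of 0.484 by edgeR. In F3 it followed the liver transcripts, as above, and its log2 fold change was 0.26 ± 0.44.

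Receptors of the circadian feedback loop were read together. *Nr1d2* (REV-ERB beta), a repressor of clock genes, had 69.8, 110.3 and 114 CPM in F1 control and 69.5, 71.1 and 57.2 CPM in F1 *thia*. F1 control replicate 1 lay within the *thia* range. The log2 difference was -0.56 ± 0.17, with an adjusted p of 0.505 by edgeR. Without that library it was -0.75 and the adjusted p 0.114, past the threshold of 0.15, and over the alternatives the adjusted p ranged from 0.074 to 0.93. In F3, *Nr1d2* had 68.2, 57.5 and 48.6 CPM in control and 53.2, 30.3 and 42.1 CPM in *thia*, with a log2 fold change of -0.47 ± 0.21 and an adjusted p of 0.247 by edgeR. Its relative *Nr1d1* (REV-ERB alpha) had 0.11 ± 0.18 in F1 and 0.28 ± 0.23 in F3.

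*Rora*, a retinoid-related orphan receptor gene and an activator at the same DNA elements, was higher in F3 *thia*. It had 7.16, 6.31 and 7.41 CPM in F3 control and 10.1, 9.55 and 11.4 CPM in F3 *thia*, with no overlap. Its fitted log2 fold change was 0.57 ± 0.14, with an adjusted p of 0.112 by edgeR, which ranged from 0.0061 with DESeq2 to 0.36 over the alternatives and was 0.087 without F3 *thia* replicate 2. In F1 it had 9.496, 9.91 and 15.2 CPM in control and 9.81, 11.1 and 10.7 CPM in *thia*. *Rorb*, known from the nervous system, was scarce, at 0.29, 0.30 and 0.15 CPM in F1 control and 0.60, 0.47 and 0.55 CPM in F1 *thia*. Its log2 fold change in F1 was 1.09 ± 0.35, with an adjusted p of 0.507 by edgeR. In F3 the groups overlapped, at 0.49 to 0.74 CPM in control and 0.46 to 0.66 CPM in *thia*. Of 14 other clock genes, 13 lay above 0 in F3 and 4 of these had an unadjusted p under 0.05, against 11% of all genes. *Per1* had 43.7 to 45.5 CPM in F3 control and 53.2 to 55.1 CPM in F3 *thia*, *Cry2* had a log2 fold change of 0.29 ± 0.08 and *Per2* one of 0.50 ± 0.19. In F1, *Clock* was lower, with -0.35 ± 0.15.

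The immediate early receptors of the NR4A group are induced by hormones and cell stress. None had an unadjusted p under 0.05 within a generation. *Nr4a1* had 24.3, 22.0 and 20.5 CPM in F1 control and 19.7, 22.7 and 22.5 CPM in F1 *thia*. In F3 it had 12.6, 15.4 and 11.9 CPM in control and 17.5, 11.8 and 18.5 CPM in *thia*. *Nr4a2* had 3.85, 3.40 and 4.78 CPM in F1 control and 3.13, 3.27 and 2.91 CPM in F1 *thia*, all lower. In F3 it had 2.17, 2.45 and 2.55 CPM in control and 2.59, 2.82 and 3.82 CPM in *thia*, all higher, and its log2 fold changes were -0.35 ± 0.19 and 0.37 ± 0.21. *Nr4a3* was under 1 CPM in every library. Of 13 genes induced with them, *Egr1* alone was higher at an unadjusted p under 0.05 in F3, against 11% of all genes, with a log2 fold change of 0.64 ± 0.18.

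The other orphan receptors had no unadjusted p under 0.05 in F1 or F3. *Nr2f2* had log2 fold changes of -0.17 ± 0.11 and 0.14 ± 0.10, *Nr2f1* (COUP-TFI) of 0.09 ± 0.18 and -0.37 ± 0.21, and *Nr2f6* of 0.08 ± 0.11 and -0.08 ± 0.09. The testicular receptors *Nr2c1* and *Nr2c2* had 3.14 to 3.42 and 4.70 to 6.01 RPKM. *Nr2c2* lay higher in each F3 *thia* library, at 75.0, 77.5 and 75.3 CPM, than in F3 control, at 69.0, 71.5 and 70.2 CPM. It shares 4590 exonic bases with *Mrps25* on the opposite strand, and *Nr2f6* shares 1622 with *Ocel1*. *Nr6a1*, the germ cell nuclear factor gene, had -0.23 ± 0.16 and -0.10 ± 0.15, in the direction of the germ cell markers, which were lower in *thia* in 5 of 5 cases in each generation. Of the oestrogen-related receptors, *Esrra* had 3.51 to 4.24 RPKM, *Esrrb*, expressed in germ cells, had 0.27 to 0.68 RPKM and *Esrrg* had 0.14 to 0.22 RPKM.

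**Figure D5:**
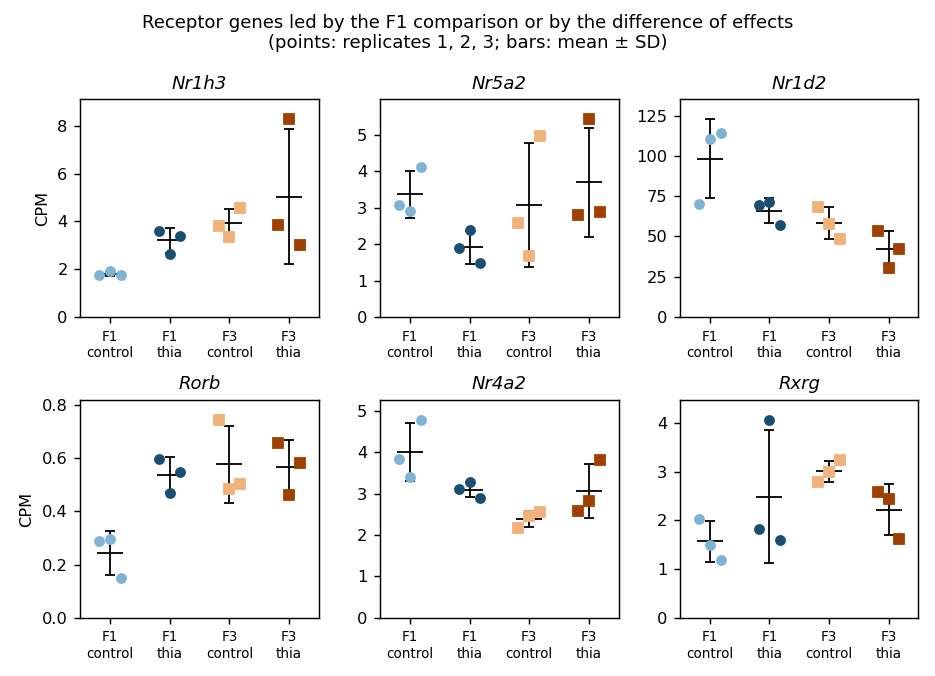
CPM (y axis) of 6 receptor genes in the 4 groups (x axis), with 1 point per library and the mean ± SD of 3 libraries as bars. In F1, *Nr1h3* and *Rorb* lie higher and *Nr5a2* and *Nr4a2* lower in *thia* without overlap, while 1 F1 control library of *Nr1d2* and 1 F1 *thia* library of *Rxrg* stand apart from their groups.

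Whether the F3 effect differed from the F1 effect was tested in a fit of all 12 libraries. At an FDR of 0.1, 0 of 43 receptor genes passed by edgeR, against 0.0051% of the 19626 genes tested. The Wald test of DESeq2 called 0 of the 29 receptor genes to which it gave an adjusted p, against 5.67% of 12770 genes. By edgeR there were 9 receptor genes at an unadjusted p under 0.05, or 20.9%, against 14% of all genes. *Rora*, *Nr4a2*, *Rara*, *Thrb* and *Nr2c2* had the larger log2 fold change in F3, as 7.93% of all genes did, and *Rarb*, *Nr2e3*, *Rorb* and *Rxrg* had the larger one in F1, as 6.1% did. The difference was 0.69 ± 0.24 for *Rora*, 0.73 ± 0.27 for *Nr4a2*, -0.69 ± 0.26 for *Rarb* and 0.37 ± 0.15 for *Rara*. It was -1.47 ± 0.57 for *Nr2e3*, which had 0.23, 0.31 and 0.11 CPM in F1 control, 0.26, 0.25 and 0.32 CPM in F1 *thia*, 0.25, 0.27 and 0.35 CPM in F3 control and 0.18, 0.086 and 0.10 CPM in F3 *thia*. At these few counts its level was imprecise. It was -1.09 ± 0.43 for *Rorb*, and the adjusted p of these 6 genes was 0.258 to 0.310 by edgeR. The count of 9 was 4 without F3 *thia* replicate 3, where 10.9% of all genes had such a p. It was 5 without F1 control replicate 3, F1 *thia* replicate 1 or F3 control replicate 1, where 11.5%, 11.6% and 9.02% had. It rose to 12 without F3 *thia* replicate 1, where 15.1% had, and to 11 without the pair rich in liver transcripts, where 14.4% had. Both effects were measured against the control libraries of their own generation.

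Control testes of F3 and F1 were compared to give the background between generations. At an FDR of 0.1, 22 of 43 receptor genes passed by edgeR, or 51.2%, against 43.2% of the 18588 genes tested, and 10 were higher and 12 lower in F3, against 21.3% and 21.9% of all genes. The labels name no library or sequencing set, and any technical difference between the libraries of F1 and F3 cannot be told apart from generation. The red cell, macrophage and liver values above moved with the same contrast. Sertoli markers, at 750 to 962 CPM in F3 control and 1322 to 1583 CPM in F1 control, had 5 of 6 called lower, and endothelial markers, at 144 to 164 CPM against 201 to 249 CPM, had 4 of 5 called lower. Sertoli cells express *Nr5a1*, and the part of these cell types in the receptor levels was not tested. *Rara* had 59.5, 57.0 and 58.3 CPM in F1 control, above all F3 control libraries, and its log2 fold change was -0.68 ± 0.09, with an adjusted p of 0.00083 by edgeR. *Nr4a1* had -0.73 ± 0.13, with an adjusted p of 0.0026. *Nr5a1* had -0.63 ± 0.12, with 0.0039, and *Esrrb*, at 2.96, 5.51 and 3.89 CPM in F1 control and 1.74, 1.97 and 1.49 CPM in F3 control, had -1.24 ± 0.26, with 0.0059. *Nr1h3* was higher in F3 control, with 1.13 ± 0.20 and an adjusted p of 0.0027, and *Rarb* with 1.00 ± 0.21 and 0.0058. Each F3 effect shares its control libraries with this comparison.

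The other genes that were lower in F3 control were mostly orphan receptors. *Nr2f2* had 268, 229.9 and 299 CPM in F1 control and 169, 192 and 189 CPM in F3 control, a log2 fold change of -0.52 ± 0.11 with an adjusted p of 0.00659 by edgeR. *Nr6a1* had 7.88, 8.77 and 9.86 CPM against 6.01, 5.26 and 5.52 CPM, with -0.64 ± 0.15 and 0.0103, and germ cell markers were lower in F3 control in 5 of 5 cases. *Nr0b2* had 4.32, 4.40 and 4.26 CPM against 2.05, 3.18 and 2.23 CPM, with -0.78 ± 0.21. *Nr1d2*, *Rora*, *Nr4a2* and *Nr2c2*, whose values in F3 control are given above, had -0.74 ± 0.18, -0.70 ± 0.19, -0.72 ± 0.20 and -0.34 ± 0.09, and *Nr2c2* had 87.0, 82.03 and 100.1 CPM in F1 control. Without F1 control replicate 3, *Rora* had -0.46. *Ppard*, a lipid sensor, had 25.1, 24.2 and 22.9 CPM against 15.1, 20.1 and 21.1 CPM, with -0.34 ± 0.14 and an adjusted p of 0.0775 by edgeR, and -0.20 without F3 control replicate 1.

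The genes that were higher in F3 control included some known from liver, which were highest in F3 control replicate 3. *Hnf4a* had 3.00, 2.67 and 2.26 CPM in F1 control and a log2 fold change of 2.17 ± 0.48, which was 1.24 without that library. *Nr1i2* had 0.41, 0.25 and 0.074 CPM in F1 control against 0.84, 0.65 and 2.12 CPM, with 2.21 ± 0.57, and *Nr1h4* had 0.52, 0.59 and 0.70 CPM against 0.90, 0.92 and 1.73 CPM, with 1.00 ± 0.33, which was 0.62 without that library. *Pparg* had 0.23, 0.082 and 0.19 CPM against 0.31, 0.43 and 0.77 CPM, with 1.68 ± 0.50. *Rxrg*, *Rorb* and *Nr3c1*, whose values are given above, had 0.94 ± 0.24, 1.17 ± 0.36 and 0.36 ± 0.11. *Nr2f1* had 7.90, 6.68 and 9.60 CPM against 10.1, 8.895 and 14.4 CPM, with 0.49 ± 0.21, which was 0.26 without F3 control replicate 3, and its groups overlapped. The calls of *Pparg*, *Rorb*, *Nr3c1*, *Nr1h4*, *Ppard* and *Nr2f1* were lost in at least 1 fit with a library left out. *Thra*, *Thrb*, *Esr1*, *Rarg* and *Nr1h2* differed between the control groups by at most 0.07 on the log2 scale.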

How the data were processed

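Testes of 3 embryos were pooled for each RNA library, and libraries were strand-specific. The authors aligned read pairs to the mm10 mouse genome using HISAT2 2.1.0, and assigned them to refGene genes by featureCounts. The values they deposited are raw, unnormalized counts for 35976 gene symbols. Strand and pair options of the counting are not given in the sources used here.

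Tests were run with edgeR 4.0.16 (limma 3.58.1) under R 4.3.3, after filterByExpr at a minimum count of 10 and TMM scaling. *Thia* was compared with control separately in F1 and F3, using the quasi-likelihood F test and Benjamini-Hochberg adjustment over every gene tested, with the FDR thresholds of the study, 0.15 for F1 and 0.1 for F3. The threshold was also 0.1 for the difference of effects and for the controls. SE values were derived from the F statistic. P-values measure the spread between pools. RPKM used exon lengths of GENCODE M21, available for 46 of 46 genes, and promoters came from RefSeq.

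All 46 genes are named. Values in every library are given for up to 6 genes with the smallest p, if under 0.05, in each comparison, for the highest RPKM of each class and for genes past an FDR, with up to 3 genes of each further list in each generation. *Rxrg*, *Nr4a2*, *Nr2c2* and the receptors known from liver were singled out in F1 or F3 after their values were seen, as were the liver, gut and kidney lists. The receptors and all lists were chosen with earlier results of these data known, so no list is independent evidence. Depth was 25081647 to 68996146 counts per library. Alternatives were DESeq2 1.42.0 (Wald test), its size factors, no low-count filter, a floor of 10 counts throughout, a single fit of all libraries, an FDR of 0.05, a replicate block, and omission of each library. Omission of both libraries rich in liver transcripts was added after the data were seen. The fit was tested on simulated data. Some genes of the further lists are not reported here.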

Additional observations from a re-analysis of the deposited data

Results flagged for a closer look

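*Nr4a2*, an immediate early orphan receptor gene, lay lower in every F1 *thia* library than in any F1 control library, and higher in every F3 *thia* library than in any F3 control library. The F3 effect exceeded the F1 effect by 0.73 ± 0.27 on the log2 scale, and the adjusted p of this difference was 0.279 by edgeR. Such opposite, non-overlapping shifts occurred in 210 of 19626 genes, or 1.07%, and in 1 of 43 receptor genes. Over the alternatives the difference was 0.54 to 0.87, and DESeq2 gave it no adjusted p. The level of *Nr4a2* in F3 control was lower than in F1 control, at 2.39 ± 0.20 against 4.01 ± 0.71 CPM (SD, n = 3).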

How the results depend on the processing

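Up to 6 genes with the smallest p in each comparison were refitted under every alternative. Of the resulting values, 295 showed no change of side of the threshold, 20 passed it and 0 reversed. The 295 include DESeq2 fits of *Nr4a2*, *Nr2e3* and *Rorb* for the difference of effects, which had no adjusted p. Of the other calls between the controls, those of *Pparg*, *Rorb*, *Nr3c1*, *Nr1h4*, *Ppard* and *Nr2f1* were lost with single libraries left out. Receptor genes called in F1 numbered 0, with 2 by DESeq2, 2 with no filter, where 0.78% of all genes were called, and 0 to 1 with single libraries left out, the 1 being *Nr1d2* without F1 control replicate 1, where 0.102% of all genes were. At an unadjusted p under 0.05 there were 3 in F1 by DESeq2, against 8.24% of all genes. There were 3 with all 12 libraries in one fit, against 9.12%, and 5 to 6 with libraries left out, against 5.15% to 11.7%. In F3, 0 were called, with 6 by DESeq2, 1 with no filter (*Esr1*), where 1.85% of all genes were called, 4 with all 12 libraries in one fit, where 9.86% were, and 0 to 4 with libraries left out, the 4 being without *thia* replicate 2, where 6.82% were. At an unadjusted p under 0.05 they numbered 3 to 9 with libraries left out, against 11.9% to 22.3% of all genes. They numbered 11 without both libraries rich in liver transcripts, against 21%, and 0 were called there, against 1.1%. For the difference of effects they numbered 4 to 12 with libraries left out, against 9.02% to 15.6% of all genes. Over all genes in F3, DESeq2 called 2546, and edgeR called 0 as set here, 333 with a floor of 10 counts in every library, 569 with no filter, 1294 without *thia* replicate 2 and 1936 with all 12 libraries in one fit. The cause was not tested. The labels do not say whether the replicate numbers pair the libraries. Deviations from the group means correlated between same-numbered libraries at -0.11, -0.083 and 0.026 in F1 and 0.26, -0.47 and -0.29 in F3. Deviations from a mean of 3 libraries are tied to each other, so these values cannot decide the pairing. With the replicate block, 0 receptor genes were called in F1, F3 and the difference, against 0.0157%, 0% and 0% of all genes. At an unadjusted p under 0.05 there were 4, 7 and 7, against 7.3%, 18.5% and 11.4% of all genes. Between the controls 22 were called, against 41.4% of all genes. With 3 libraries per group, fold changes of genes under 1 CPM were imprecise. The embryos of a pool, their litters and any library sets are not given by the labels.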

Other observations

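Cofactors and chaperones of nuclear receptors also had no gene past the threshold within a generation by edgeR. That test called 0.0105% of all genes in F1 and 0% in F3, so this is no result about these lists. Of 14 coactivators, 12 lay above 0 in F3, with 6 higher and 1 lower at an unadjusted p under 0.05, against 11% and 10% of all genes. *Ep300*, a histone acetyltransferase, had 37.9, 51.6 and 44.9 CPM in F3 control and 62.9, 59.4 and 66.4 CPM in F3 *thia*, with a log2 fold change of 0.49 ± 0.12 and an adjusted p of 0.109 by edgeR. *Ncoa6* had 0.57 ± 0.14, and the arginine methyltransferase gene *Prmt1* was lower, with -0.28 ± 0.07. Of 10 corepressors, 3 were higher and 1 lower, among them *Nrip1*, with 0.40 ± 0.11, and *Hdac3*, with -0.24 ± 0.08. Of 10 chaperones of steroid receptors, 9 lay below 0 in F3, with 6 lower and 1 higher. *Fkbp4*, a partner of HSP90, had 500.4, 490.3 and 467 CPM in F3 control and 440.5, 391 and 383 CPM in F3 *thia*, with -0.27 ± 0.08, and *Cdc37* and *St13* had -0.19 ± 0.07 and -0.20 ± 0.07.

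In F1 the same lists lay mostly below 0. Of the coactivators, 11 of 14 did, and *Kat2b* was lower, with a log2 fold change of -0.33 ± 0.11. *Lcor* and *Sin3a* were the corepressors with an unadjusted p under 0.05, at -0.35 ± 0.11 and -0.27 ± 0.10, and *Ptges3* was the chaperone, at -0.28 ± 0.11. *Crabp1* and *Stra6*, which bind or take up retinoids, were higher in F1 *thia*, with 0.35 ± 0.12 and 0.38 ± 0.15, and their adjusted p was 0.518 and 0.543 by edgeR. *Crabp1* was lower in F3 *thia*, with -0.52 ± 0.17. The difference between the F3 and F1 effects had an unadjusted p under 0.05 in 9 of 14 coactivators and 9 of 15 SF-1 target genes, against 14% of all genes. By edgeR 0 of these passed the FDR of 0.1, which called 0.0051% of all genes.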
